A study of Mus musculus with 2 samples.

Results

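The genes described here are 10 named components of the basement membrane, taken by name from a fixed list: the laminin chains Lama1, Lama5, Lamb1 and Lamc1, the collagen IV chains Col4a1 and Col4a2, the matrix protein Sparc, the nidogens Nid1 and Nid2, and Hspg2, which encodes perlecan. All 10 were among the 52366 genes of the count table. They were followed in 24 mouse pseudoblastocysts, which are embryos with a cavity that were not examined for an inner cell mass, each analysed as a single embryo by CEL-Seq2, a method that counts the 3′ ends of polyadenylated RNA by unique molecular identifiers (UMIs). Oocytes of B6D2F1 females aged 8 to 9 weeks were fertilized in vitro with ICR sperm, and the zona pellucida was removed in all 4 groups. The 1C embryos grew from whole zygotes freed of the zona at 5 h postinsemination (hpi). The 2CB embryos grew from single blastomeres isolated at the two-cell stage at 24 hpi, and the 4CB and 8CB embryos from single blastomeres isolated at the four-cell and eight-cell stages at 48 hpi. All were cultured to 96 hpi, and each group held 6 embryos. Zona-intact embryos were not among the embryos analysed here, and the sources used here do not say which blastomeres were sisters.

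A library pool held the 1C with the 8CB embryos, and another held the 2CB with the 4CB embryos. A difference between these pairs of groups and a difference between the pools therefore cannot be told apart, and with 1 pool on each side the p-values measure the spread between embryos, not between pools. Total counts ranged from 70941 to 1507471 UMIs per embryo, with group medians of 244312 for 1C, 519932 for 2CB, 216325 for 4CB and 313283 for 8CB. Levels are given as counts per 1000000 UMIs of the embryo (CPM), and a call is an adjusted p below 0.1 in edgeR's quasi-likelihood test over all 5940 genes that passed a filter on low counts. Because each library is a whole embryo, fewer cells of a type and less RNA per cell cannot be told apart.

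A basement membrane is a thin sheet of extracellular matrix on which epithelia rest. Laminins are heterotrimers of an α, a β and a γ chain that polymerize on cell surfaces. Collagen IV forms a covalent network from heterotrimers of its own chains, nidogens and perlecan bridge the networks, and Sparc binds collagen outside the cell. In the mouse blastocyst these components are laid down between the inner cell mass lineages and beneath the trophectoderm, and the endoderm derived from the inner cell mass becomes a major producer of them.

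Of the 10 genes, Lama1, Lamb1, Col4a1, Col4a2, Sparc and Nid1 passed the filter, whereas Lama5, Lamc1, Nid2 and Hspg2 did not and were taken from a fit with no filter over 23171 genes. Embryos of the 2CB and 4CB groups are called 2CB/4CB embryos below, and those of the other pool 1C/8CB embryos. In 2CB/4CB against 1C/8CB embryos, Lama1, Sparc, Lamb1 and Col4a1 were higher, and Col4a2 and Nid1 did not pass the test. That is 4 of the 6 tested genes, beside 55.3% of all tested genes called in this comparison, 31.3% higher and 24% lower, so the count lies near the background and is no result about the list. In the fit with no filter 8 of the 10 were called, all but Lama5 and Nid2, beside 23.8% of all genes. Those 8 include Col4a2 and, as lower, Nid1. The SE of each of the 6 tested genes was smaller in that fit, at 0.35 in place of 0.54 for Sparc. Its calls are therefore not comparable with those of the filtered fit. Lama1, Sparc and Col4a1 passed the filter through the 2CB/4CB embryos, since 0, 1 and 4 of the 12 1C/8CB embryos reached the filter's level of 30.2 CPM where 6 embryos were needed. The counts above and the median log2 fold change of the 6 tested genes, 1.68 beside 0.12 over all tested genes, therefore describe these genes and are no support for a property of the list.

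**Figure D1:**
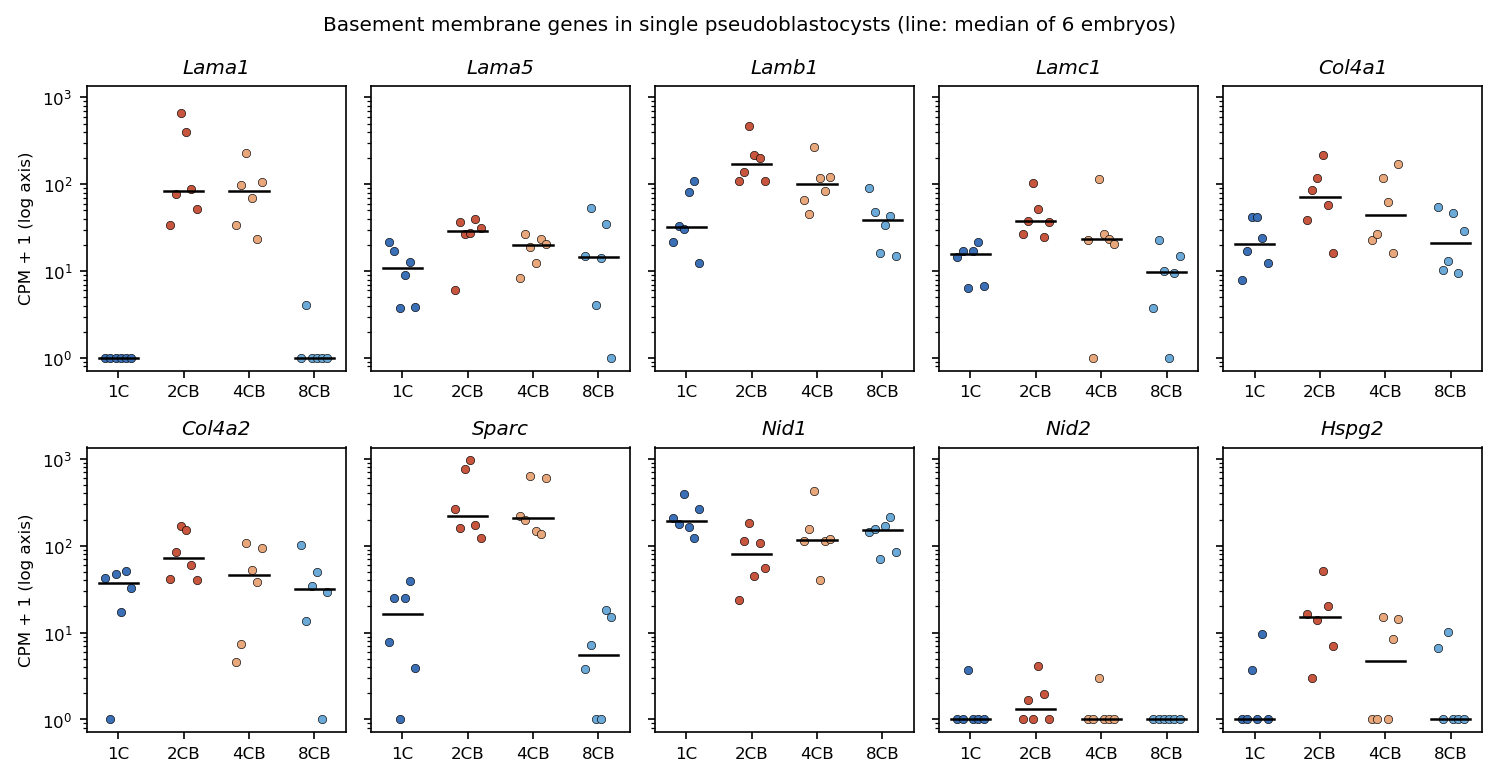
Level of each of the 10 genes in every embryo, as CPM plus 1 on a log axis, by group, where each point is 1 embryo and the line is the median of 6. Lama1 and Sparc are separated between the 2CB/4CB embryos and the 1C/8CB embryos, the other genes overlap, and Nid2 lies near 0 in all groups.

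Lama1 encodes the laminin α1 chain, which is part of the first laminins made in the mouse embryo. The gene lies at chr17:67697265-67822645 on the plus strand of GRCm38. No Lama1 UMI was counted in the 6 1C embryos, and 1 UMI was counted in the 8CB embryos, in 1 embryo at 3.11 CPM. In 2CB embryos the lowest, median and highest levels were 33.0, 82.0 and 657 CPM, and in 4CB embryos 22.6, 82.4 and 227 CPM. All 12 2CB/4CB embryos thus lay above all 12 1C/8CB embryos, a separation found in 208 of the 5940 tested genes, or 3.5%. Summed over embryos the counts were 984 against 1 UMI, a CPM ratio of 436 with an exact 95% interval of 78.1 to 17250 that covers counting error only. Against the floor of 3 UMIs over the 1C group, Lama1 was at least 84.1-fold higher in 2CB and at least 48.4-fold higher in 4CB embryos. The exact 95% lower limits on the counts were lower, at 68.2-fold and 39.1-fold, and 4CB replicate 3 held 114 of the 235 4CB UMIs, without which the 4CB bound was 31.7-fold. The fitted log2 fold change of 8.00 (SE 0.87, edgeR adjusted p = 6.096e-08) depends on the prior count and is no bound, and it was 6.40 after thinning, 7.15 with DESeq2 and 7.65 to 8.85 when 1 embryo was left out. Depth differed between the pools, so every embryo was also thinned to 70941 UMIs, and Lama1 was then counted 99 times in 2CB, 40 times in 4CB and 0 times in 1C/8CB embryos. In that single random draw 5 of the 6 2CB and 6 of the 6 4CB embryos had a Lama1 UMI, so the full separation was not kept in it. Other draws were not made for these counts, and the fitted value after thinning came from a separate draw.

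Lama5 encodes the α5 chain, the alternative partner for the same β and γ chains. It lies at chr2:180176373-180225859 on the minus strand. Its lowest, median and highest levels were 2.71, 9.88 and 20.6 CPM in 1C, 5.08, 28.2 and 39.2 CPM in 2CB, 7.25, 18.8 and 25.5 CPM in 4CB, and 0, 13.6 and 52.9 CPM in 8CB embryos. The groups overlapped throughout, and the highest embryo was an 8CB embryo. The log2 fold change of the 2CB/4CB embryos over the 1C/8CB embryos was 0.58 (SE 0.47, 95% interval -0.33 to 1.5, adjusted p = 0.489 in the edgeR fit with no filter). The balance between the α chains was set out within each embryo, where depth cancels. Lama5 had more UMIs than Lama1 in 11 of the 12 1C/8CB embryos, and Lama1 had more than Lama5 in 11 of the 12 2CB/4CB embryos, with a tie in the remaining embryo of each set. The sums were 43 Lama5 to 1 Lama1 UMI in the former and 168 to 984 in the latter. CEL-Seq2 counts are of 3′ ends and were not divided by length, so this ratio is read across embryos and not as the share of each chain.

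Lamb1 encodes the β1 chain and lies at chr12:31265234-31329644 on the plus strand. Its lowest, median and highest levels were 11.5, 30.96 and 108 CPM in 1C, 108, 169.9 and 461 CPM in 2CB, 44.7, 100.3 and 265 CPM in 4CB, and 14.1, 37.7 and 89.7 CPM in 8CB embryos. The 2CB embryos all lay above the 1C/8CB embryos, although 1 of the 1C embryos came within 1 CPM of the lowest, and the 4CB embryos overlapped with both. The log2 fold change of the 2CB/4CB embryos over the 1C/8CB embryos was 1.77 (SE 0.35, edgeR adjusted p = 0.0001416). By the fitted fold changes the order from the highest was 2CB, 4CB, 1C and 8CB, but neighbours within a pool were not resolved. The 4CB to 2CB step (log2 fold change -0.81, 95% interval -1.74 to 0.12) and the 8CB to 1C step (-0.10, -1.20 to 0.99) did not pass the test.

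Lamc1 encodes the γ1 chain, which both α chains use. It lies at chr1:153218922-153332786 on the minus strand and overlaps on the same strand with Gm38009, which had 58 UMIs, so reads of the pair may have been split by the counting. Its lowest, median and highest levels were 5.43, 14.9 and 20.4 CPM in 1C, 23.9, 36.6 and 101.7 CPM in 2CB, 0, 22.2 and 113.6 CPM in 4CB, and 0, 8.82 and 21.8 CPM in 8CB embryos. The 2CB embryos did not overlap with the 1C/8CB embryos, whereas a 4CB embryo had no Lamc1 UMI. The fit with no filter gave a log2 fold change of 1.90 (SE 0.43, edgeR adjusted p = 0.0001564). The ratio of Lamb1 to Lamc1 overlapped in all groups, and the sums gave 4.06 Lamb1 UMIs for each Lamc1 UMI in 1C embryos, 4.65 in 2CB embryos, 3.27 in 4CB embryos and 5.23 in 8CB embryos. The ratio of the α1 to the β1 chain differed more, since Lama1 UMIs were 0.00730 times those of Lamb1 in the 1C/8CB embryos and 0.869 times in the 2CB/4CB embryos. The former value rests on 1 Lama1 UMI against 137 Lamb1 UMIs and restates that near absence, and this ratio was not among those planned.

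Col4a1 and Col4a2 encode the α1 and α2 chains of collagen IV, which assemble as 2 α1 chains with 1 α2 chain. The genes stand head to head on chromosome 8, Col4a1 at chr8:11198423-11312826 on the minus strand and Col4a2 at chr8:11312805-11449287 on the plus strand of GRCm38, so their spans overlap by 22 bases. They are known to be transcribed from a shared bidirectional promoter, and its sequence is shown because the chains were read as a pair. The RefSeq windows (GRCm38.p6), from 250 bases before to 50 bases after each start site, share 78 bases at chr8:11312777-11312854, which are in capitals, each window being written 5′ to 3′ on the strand of its gene.
Col4a1, chr8:11312777-11313076, minus strand: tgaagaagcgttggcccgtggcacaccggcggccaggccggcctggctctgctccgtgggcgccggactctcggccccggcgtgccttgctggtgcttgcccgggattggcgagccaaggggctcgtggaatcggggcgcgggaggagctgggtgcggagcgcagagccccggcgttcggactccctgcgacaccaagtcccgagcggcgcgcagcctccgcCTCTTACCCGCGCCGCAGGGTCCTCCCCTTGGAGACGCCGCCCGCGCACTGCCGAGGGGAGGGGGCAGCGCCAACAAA
Col4a2, chr8:11312555-11312854, plus strand: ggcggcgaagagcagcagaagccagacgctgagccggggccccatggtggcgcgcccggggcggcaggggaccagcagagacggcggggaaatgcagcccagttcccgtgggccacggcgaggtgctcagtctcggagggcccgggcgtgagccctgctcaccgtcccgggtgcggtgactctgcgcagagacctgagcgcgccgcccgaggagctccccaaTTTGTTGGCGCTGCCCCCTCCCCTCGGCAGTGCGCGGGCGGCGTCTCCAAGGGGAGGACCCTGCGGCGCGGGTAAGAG

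Both windows were rich in G and C, at 74.0% for Col4a1 and 73.7% for Col4a2, against a median of 52.7% and a 95th percentile of 73.7% over 32851 RefSeq promoter windows of the mouse. Each window held 1 match to the CCAAT box, spelled as in its name and read on either strand, which 37.4% of all windows held. The GC box (GGGCGG, either strand) had 1 match in the Col4a1 and 3 in the Col4a2 window and was present in 35.7% of all windows. A match describes letters in a window and is not a site.

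Col4a1 had lowest, median and highest levels of 6.86, 19.7 and 40.7 CPM in 1C, 15.0, 70.8 and 217 CPM in 2CB, 15.1, 43.3 and 171 CPM in 4CB, and 8.53, 20.2 and 53.3 CPM in 8CB embryos. The 2CB and the 4CB embryos spread widely, and their lowest embryos lay among the 1C/8CB embryos. The log2 fold change of the 2CB/4CB embryos over the 1C/8CB embryos was 1.59 (SE 0.43, edgeR adjusted p = 0.00318). Col4a2 had lowest, median and highest levels of 0, 36.5 and 49.6 CPM in 1C, 39.0, 71.0 and 169 CPM in 2CB, 3.62, 44.9 and 105.7 CPM in 4CB, and 0, 30.8 and 100.9 CPM in 8CB embryos. All 4 groups overlapped for Col4a2, with the lowest 4CB embryo near 0 and an 8CB embryo above the 2CB median. Its log2 fold change was 0.85 (SE 0.44, 95% interval -0.05 to 1.75, edgeR adjusted p = 0.1108), and it was called in 6 of the 24 fits that left out 1 embryo, namely without 1C replicate 5, 2CB replicate 1 or 6, 4CB replicate 1 or 2, or 8CB replicate 1, where the adjusted p ran from 0.03624 to 0.09819.

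The ratio of the collagen IV chains was compared within embryos. Summed over embryos, Col4a1 had 0.645 times the UMIs of Col4a2 in the 1C/8CB embryos and 1.09 times in the 2CB/4CB embryos. With 1 UMI added to each, the log2 ratio ran from -1.81 to 1.58 around a median of -0.25 in the former and from -1.22 to 1.81 around a median of 0.07 in the latter. The ranges overlapped almost wholly, so that the call for Col4a1 and the missed call for Col4a2 do not show that the chains changed unequally, and the difference between the chains was not tested.

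**Figure D2:**
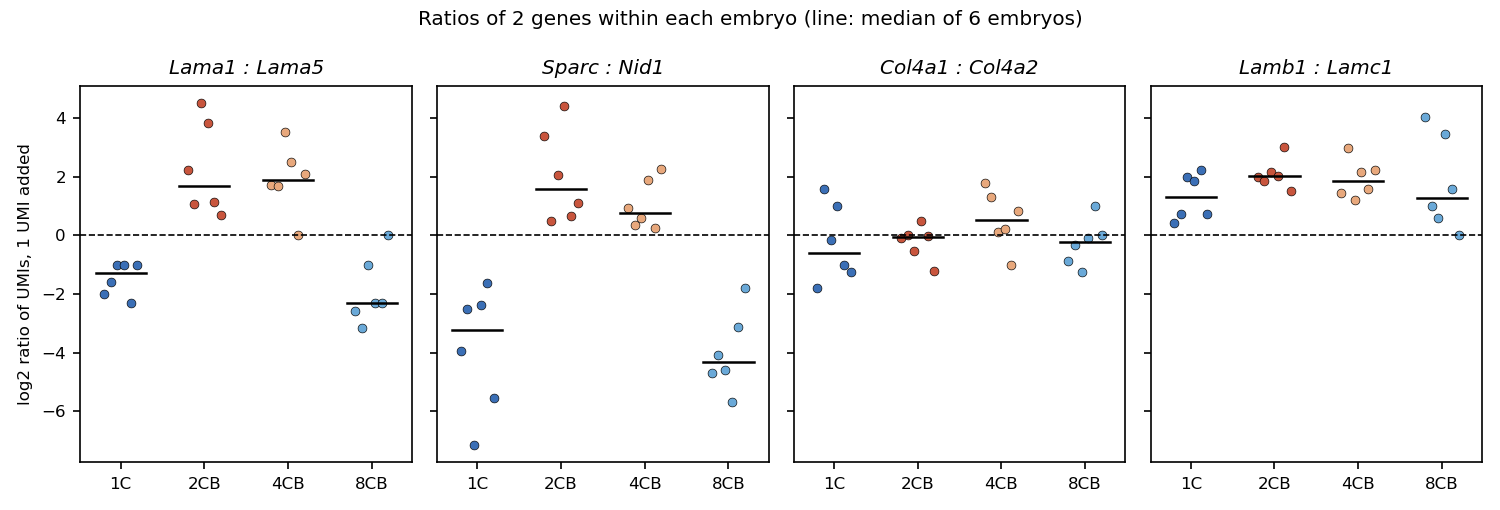
Log2 ratio of UMIs of 2 genes within each embryo, with 1 UMI added to each gene, by group, where each point is 1 embryo, the line is the median of 6 and the dashed line is equal counts. The Lama1 to Lama5 and Sparc to Nid1 ratios lie at or below 0 in 1C/8CB embryos and at or above 0 in 2CB/4CB embryos, while the Col4a1 to Col4a2 and Lamb1 to Lamc1 ratios overlap in all groups. The Sparc to Nid1 pair was not among the planned ratios.

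Sparc, also called osteonectin or BM-40, is a secreted glycoprotein of basement membranes and is abundant in parietal endoderm. It lies at chr11:55394500-55423183 on the minus strand. Its lowest, median and highest levels were 0, 15.5 and 37.9 CPM in 1C, 120.2, 217 and 958 CPM in 2CB, 135.6, 207.6 and 634 CPM in 4CB, and 0, 4.51 and 17.1 CPM in 8CB embryos. The lowest 2CB/4CB embryo was above the highest 1C/8CB embryo, with a gap from 37.9 to 120.2 CPM between the sets. Over the embryos 2161 UMIs stood against 27, a CPM ratio of 35.5 with an exact 95% interval of 24.3 to 54.0. The log2 fold change was 5.43 (SE 0.54, edgeR adjusted p = 3.379e-09). After thinning to equal depth Sparc had 159 UMIs in 2CB, 167 in 4CB, 8 in 1C and 1 in 8CB embryos.

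The Sparc and Nid1 promoter windows are shown because these genes lay farthest apart in their fold change among the tested genes for which RefSeq gave a window. Windows were found for 7 of the 10 genes, and Lama1, Lamc1 and Nid2 had none. The GC box match is in capitals. The RefSeq start of Sparc lies 3103 bases inside the span of the count table, so its window is not at the 5′ end of that span.
Sparc, chr11:55420031-55420330, minus strand: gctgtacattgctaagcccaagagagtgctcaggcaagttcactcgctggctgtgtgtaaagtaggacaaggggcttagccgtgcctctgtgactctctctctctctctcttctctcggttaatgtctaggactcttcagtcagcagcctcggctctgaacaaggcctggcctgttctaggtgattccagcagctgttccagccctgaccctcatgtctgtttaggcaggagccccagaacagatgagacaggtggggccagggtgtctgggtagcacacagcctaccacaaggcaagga
Nid1, chr13:13437352-13437651, plus strand: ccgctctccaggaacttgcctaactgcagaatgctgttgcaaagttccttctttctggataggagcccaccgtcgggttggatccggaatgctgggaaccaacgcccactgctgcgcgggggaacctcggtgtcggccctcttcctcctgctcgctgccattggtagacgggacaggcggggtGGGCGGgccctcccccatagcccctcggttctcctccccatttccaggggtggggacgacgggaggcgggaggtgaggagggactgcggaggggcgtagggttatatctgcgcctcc

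The Sparc window had no match to the GC box, the CCAAT box, the TATA box spelled TATAAA, the GATA motif spelled AGATAA or the SOX motif spelled ACAAAG on either strand, while the Nid1 window had 1 GC box and 1 CCAAT box. The last 3 motifs were present in 13.6%, 11.2% and 18.7% of all windows and in 0 of the 7 windows of these genes. The Sparc window was 55.3% and the Nid1 window 64.7% G and C.

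Nidogens link the laminin and collagen IV networks. Nid1 lies at chr13:13437551-13512269 on the plus strand, within which an antisense gene, Gm48682, had 41 UMIs. Because the strand setting of the counting is not given in the sources used here, reads of the pair cannot be told apart. Nid1 levels had a lowest, median and highest value of 122.5, 191 and 388 CPM in 1C, 22.9, 80.1 and 179.9 CPM in 2CB, 38.9, 115.8 and 421 CPM in 4CB, and 69.9, 149 and 213 CPM in 8CB embryos. Nid1 was counted in every embryo, and the groups overlapped, with the lowest levels in 2CB embryos and the highest in a 4CB embryo. The log2 fold change of the 2CB/4CB embryos over the 1C/8CB embryos was -0.60 (SE 0.32, 95% interval -1.26 to 0.05, edgeR adjusted p = 0.12). Whether Nid1 was called depended on single embryos: without the number 3 4CB embryo the log2 fold change was -0.92 (edgeR adjusted p = 0.01232), and Nid1 was also called lower without 2CB replicate 3 (-0.76), 8CB replicate 3 (-0.68) or 1C replicate 5 (-0.67). After thinning it was -0.88 (edgeR adjusted p = 0.03592). Nid1 exceeded Sparc in UMIs in 12 of the 12 1C/8CB embryos, and Sparc exceeded Nid1 in 12 of the 12 2CB/4CB embryos. This pair was not among the planned ratios, and Sparc alone already separated the sets. The ratio therefore describes the pair chosen and is no separate result.

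Nid2 encodes the second nidogen and lies at chr14:19751257-19811787 on the plus strand, overlapping by 437 bases with Rtraf on the opposite strand. It had 1, 4, 1 and 0 UMIs in the 1C, 2CB, 4CB and 8CB embryos. These counts were at or near the floor of 3 UMIs over a group, so no fold is given and a difference was not detectable at this depth. Hspg2, the perlecan gene, encodes a proteoglycan that carries heparan sulfate chains and lies at chr4:137468769-137570630 on the plus strand. It had 4, 68, 10 and 5 UMIs in the 1C, 2CB, 4CB and 8CB embryos and was counted in all 6 2CB embryos but in 2 of the 6 1C, 3 of the 6 4CB and 2 of the 6 8CB embryos. Its lowest, median and highest levels in 2CB embryos were 1.99, 14.1 and 49.5 CPM. In the fit with no filter its log2 fold change was 1.62 (SE 0.71, edgeR adjusted p = 0.09399), which did not pass a threshold of 0.05. Of its 78 UMIs in the 2CB/4CB embryos 32 came from 2CB replicate 4.

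**Figure D3:**
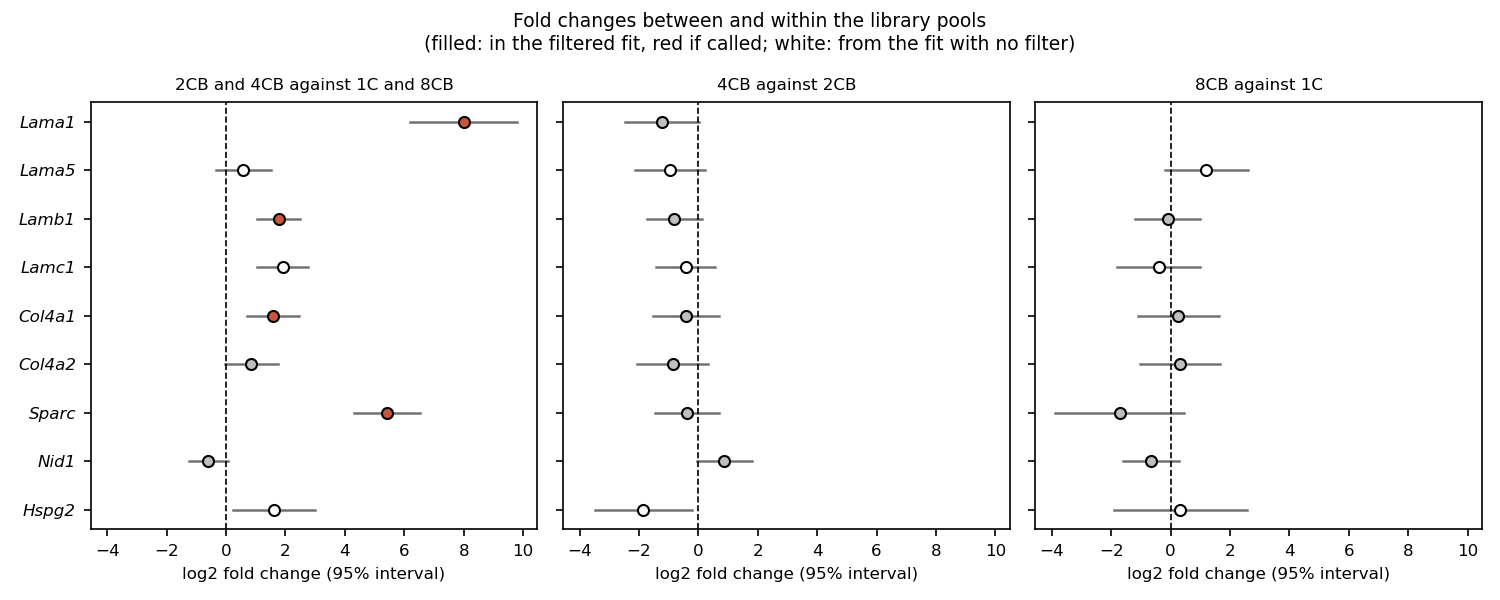
Log2 fold changes of 9 of the 10 genes, without Nid2, with 95% intervals from the edgeR fits in 3 panels, 2CB/4CB against 1C/8CB, 4CB against 2CB, and 8CB against 1C, where Lama1 is not drawn because it had 0 and 1 UMIs. Filled points are from the filtered fit, red where called, and white points are from the fit with no filter. Lama1 at 8.00 and Sparc at 5.43 stand apart in the first panel, and no gene was called in the other panels.

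Comparisons within a library pool do not carry a difference between pools. In 4CB against 2CB embryos edgeR called 0 of the 6 tested genes, beside 0.0337% of all tested genes (2 genes). DESeq2 called 0 of the 6 as well, beside 10 of the 5363 genes it tested. At an unadjusted p below 0.05 in edgeR the count was 0 of the 6, and 263 over all genes. The intervals were wide: the log2 fold change was -1.23 for Lama1 (95% interval -2.46 to 0.01), -0.38 for Sparc (-1.45 to 0.69), -0.42 for Col4a1 (-1.53 to 0.69) and 0.87 for Nid1 (-0.05 to 1.79). The value for Lama1 rested on single embryos, being -0.53 without 2CB replicate 3 and -1.77 without 4CB replicate 3, and leaving out 1 embryo in turn gave -0.71 to 0.11 for Sparc, -0.82 to 0.10 for Col4a1 and 0.24 to 1.18 for Nid1. Hspg2, with 10 against 68 UMIs, had a log2 fold change of -1.85 (95% interval -3.49 to -0.20) and an edgeR adjusted p of 0.5972 in the fit with no filter.

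In 8CB against 1C embryos edgeR also called 0 of the 6 tested genes, beside 0% of all tested genes. DESeq2 called 0 of the 6 too, beside 43 of the 5939 genes it tested. An unadjusted p below 0.05 in edgeR was found for 0 of the 6 and for 550 of all genes. The log2 fold change was 0.25 for Col4a1 (95% interval -1.11 to 1.62), 0.31 for Col4a2 (-1.03 to 1.65) and -0.66 for Nid1 (-1.59 to 0.28). Sparc had 21 UMIs in 1C and 6 in 8CB embryos, with a log2 fold change of -1.72 (-3.88 to 0.44). Of the 21 UMIs 13 were in 1C replicate 5, without which the value was -0.89. Leaving out 1 embryo in turn gave -0.12 to 0.55 for Col4a1, -0.29 to 0.52 for Col4a2 and -0.79 to -0.42 for Nid1. A change of 2-fold in at least 1 direction lies within each of these intervals, so the embryos do not show that the groups were alike.

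The comparisons of single groups across the pools share groups with each other and with the pooled comparison, and each is confounded with pool. Among the 4 groups edgeR called 5 of the 6 tested genes, all but Col4a2, beside 47.1% of all tested genes. The call of Nid1 there was near the threshold (edgeR adjusted p = 0.09084), and the count was 4 of the 6 with DESeq2 size factors (beside 2793 of all 5940 tested genes), at an adjusted p below 0.05 (beside 2367), and (beside 2657 to 2735) without 1C replicate 1, 3 or 6, 2CB replicate 1, 4, 5 or 6, 4CB replicate 2, or 8CB replicate 2 or 4. Against 1C embryos, 2CB embryos differed in 6 of the 6 tested genes, beside 41.5% of all, with Lama1, Sparc, Lamb1, Col4a1 and Col4a2 higher and Nid1 lower at a log2 fold change of -1.37 (SE 0.45, edgeR adjusted p = 0.01948). After thinning to equal depth, and at an adjusted p below 0.05, 5 of the 6 were called, without Col4a2, beside 1674 and 1980 of all 5940 tested genes. The 4CB embryos differed from 1C embryos in 4 of the 6, beside 40.9% of all, namely Lama1, Sparc, Lamb1 and Col4a1. Nid1 had a log2 fold change of -0.50 there (SE 0.45, edgeR adjusted p = 0.4204). Leaving out 1 embryo ended the 2CB against 1C call of Col4a2 for 1C replicate 2, 4 or 6 or 2CB replicate 3 or 4. It ended the 4CB against 1C call of Lamb1 for 1C replicate 6 or 4CB replicate 3, and that of Col4a1 for 1C replicate 1, 2 or 6 or 4CB replicate 3 or 6, with adjusted p in all these cases between 0.1019 and 0.2003. Without 4CB replicate 3, Nid1 was lower in 4CB than in 1C embryos (log2 fold change -1.13, edgeR adjusted p = 0.05111). Whether 2CB and 4CB embryos differed in their distance from 1C embryos is the 4CB against 2CB comparison above, in which no gene was called.

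Against 2CB embryos, 8CB embryos were lower in Lama1, Sparc, Lamb1 and Col4a1, which is 4 of the 6 beside 38.4% of all tested genes. Against 4CB embryos they were lower in Lama1, Sparc and Lamb1, which is 3 of the 6 beside 40.2% of all, and Col4a1 had a log2 fold change of -1.25 (SE 0.61, edgeR adjusted p = 0.118). After thinning, 3 of the 6 were called against 2CB embryos, beside 1582 of all 5940 tested genes, and 4 of the 6 against 4CB embryos, beside 1737. Without 2CB replicate 4 the Col4a1 call against 2CB embryos was lost (log2 fold change -1.16, edgeR adjusted p = 0.1451), and without 8CB replicate 1 Col4a2 was called there too (-1.73, edgeR adjusted p = 0.04925). Against 4CB embryos the Lamb1 call was lost without 4CB replicate 3 (-0.96, edgeR adjusted p = 0.1495), and Col4a1 was called in 7 of the 24 fits that left out 1 embryo, without 2CB replicate 4 or 6, 4CB replicate 1, 2 or 5, or 8CB replicate 1 or 4 (adjusted p from 0.06926 to 0.09977). Lama1 and Sparc kept their calls in all of these fits. Sparc fell by 6.47 on the log2 scale from 2CB to 8CB embryos and by 6.09 from 4CB to 8CB embryos.

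Within the 2CB/4CB embryos the levels of these genes varied widely, and the same embryos tended to be high for several genes. The highest over the lowest embryo was 19.9-fold for Lama1 and 14.4-fold for Col4a1 among 2CB embryos and 4.27-fold for Lamb1. Deviations of log2 CPM from the group means were correlated for the 15 pairs of the 6 tested genes. In the 12 2CB/4CB embryos Pearson's r had a median of 0.672 over the pairs and ran from 0.244 for Col4a1 with Nid1 to 0.823 for Lamb1 with Col4a2. In the 12 1C/8CB embryos the median was 0.0205 and the range -0.548 to 0.498, where the highest was Col4a1 with Col4a2 and the lowest Col4a2 with Sparc. These correlations are descriptive: embryos of a set share a pool, embryos differ in depth, and Lama1 and Sparc counts in the 1C/8CB embryos were near the floor.

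**Figure D4:**
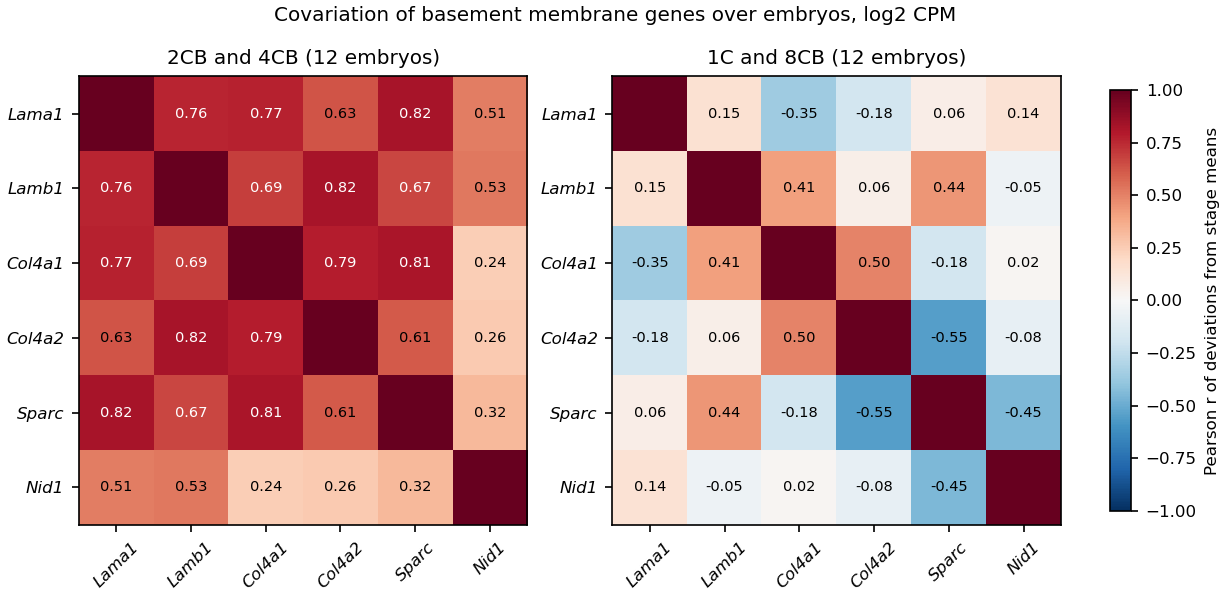
Pearson correlations of the 6 tested genes over embryos, from deviations of log2 CPM from the group means, in the 12 2CB/4CB embryos and in the 12 1C/8CB embryos. All 15 pairs are positive on the left, from 0.244 to 0.823, and Nid1 has the lowest values there, while the pairs on the right spread around 0.

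The number 3 embryo of the 2CB group and the number 3 embryo of the 4CB group were high for several genes. The former was the highest 2CB embryo for Lama1 (657 CPM), Lamb1 (461 CPM), Lamc1 (101.7 CPM), Col4a2 (169 CPM) and Nid1 (179.9 CPM). The latter was the highest 4CB embryo for Lama1 (227 CPM), Lamb1 (265 CPM), Lamc1 (113.6 CPM), Col4a2 (105.7 CPM), Sparc (634 CPM), Nid1 (421 CPM) and Hspg2 (13.9 CPM). They carried the same number, and the sources used here do not say whether it pairs embryos. Without both, a choice made after seeing the data, edgeR called 5 of the 6 genes in the 2CB/4CB embryos against the 1C/8CB embryos, beside 3103 of all 5940 tested genes, with Lama1 at a log2 fold change of 7.37, Sparc at 5.13, Lamb1 at 1.35 and Col4a1 at 1.43, and Nid1 lower at -1.07 (edgeR adjusted p = 0.003709).

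The genes whose deviations were most like the mean of the 6 tested genes over the 24 embryos, among 5810 genes, were Foxq1 (r = 0.824), Ckap4 (r = 0.7501), Pdgfra (r = 0.746), Crygd (r = 0.708) and Sox17 (r = 0.675). Foxq1 is a forkhead transcription factor, Ckap4 a membrane protein of the endoplasmic reticulum, Pdgfra a receptor tyrosine kinase, Crygd a crystallin and Sox17 a transcription factor. Within the 12 2CB/4CB embryos r was 0.897 for Foxq1, 0.833 for Ckap4, 0.802 for Pdgfra, 0.762 for Crygd and 0.697 for Sox17. In the 12 1C/8CB embryos r was -0.182 for Foxq1, 0.503 for Ckap4, 0.647 for Pdgfra, 0.306 for Crygd and 0.528 for Sox17. Foxq1 and Crygd were almost uncounted there and the 6 genes include Lama1 with 1 UMI, so these values are weak. Pdgfra and Sox17 are markers of primitive endoderm. Foxq1 had mean levels of 304 CPM in 2CB and 173 CPM in 4CB embryos and 0.934 and 0 CPM in 1C/8CB embryos, and Pdgfra 88.3 and 70.8 CPM against 14.9 and 22.96 CPM. The same caution on shared pools and depth holds for these values.

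Markers of the lineages of the blastocyst also differed between the pools, not all in the same direction, and they are given with the 10 genes removed from each list. The primitive endoderm list still holds the collagen chaperone gene Serpinh1, and it shares Fgfr2 with the trophectoderm list. The summed level of 15 primitive endoderm markers ran from 789 to 1371 CPM in the 1C/8CB embryos and from 1354 to 3075 CPM in the 2CB/4CB embryos. Sox7 and Foxa2 had no UMI in the 1C/8CB embryos, and 15 of the 15 markers were counted in the 2CB/4CB embryos. The sums were carried by the abundant Lrp2, Dab2 and Gata6, of which Lrp2 (mean 907 CPM in 2CB against 165 CPM in 1C embryos) and Dab2 (668 against 357 CPM) were higher in the 2CB/4CB embryos and Gata6 (273 against 501 CPM in the same groups) was lower, at a log2 fold change of -0.67 (edgeR adjusted p = 0.009907). The trophectoderm list of 15 ran from 865 to 1309 CPM and from 3463 to 7180 CPM in the same order, and the 12 epiblast and inner cell mass markers from 564 to 2080 CPM and from 267 to 1004 CPM. The 8 parietal endoderm markers summed to 0 to 14.1 CPM and to 5.97 to 154.8 CPM. The part of these markers in the differences between the pools was not tested.

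Within the 12 2CB/4CB embryos, where pool is shared, the mean standardized deviation of the 6 tested genes from their group means had a Pearson's r of 0.727 and a Spearman's rho of 0.818 with the same deviation of the summed primitive endoderm markers (log2 scale), and r was 0.713 without the 2 embryos farthest from the median of the markers. With the trophectoderm markers r was -0.163 and with the epiblast markers -0.0751. Within the 12 1C/8CB embryos r was 0.602 with the primitive endoderm, 0.314 with the trophectoderm and 0.284 with the epiblast markers, although Lama1 had 1 UMI and Sparc 27 UMIs there. Of the other 4 genes in these embryos, r with the primitive endoderm markers was 0.785 for Lamb1, 0.204 for Col4a1, 0.114 for Col4a2 and 0.0594 for Nid1, and Col4a1 had a higher r with the trophectoderm markers (0.505) and Col4a2 with the epiblast markers (0.604). By gene, r with the primitive endoderm markers in the 2CB/4CB embryos ran from 0.475 for Sparc to 0.703 for Lama1. These are descriptions over embryos, and the lists were chosen with results of these data known. The part of Serpinh1 in the values for the primitive endoderm markers was not tested.

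Markers of cumulus cells and fibroblasts, which also make matrix, were read in the same way. Of 9 cumulus markers 7 had no UMI in either pool, among them Ptx3, Has2 and Amh, and the sum reached at most 16.03 CPM in an embryo of the 1C group. Of 10 fibroblast markers 7 had no UMI in the 1C/8CB embryos, whereas 9 had a UMI in the 2CB/4CB embryos, all but Dcn. The list summed to 12.8 to 167 CPM in the 2CB/4CB embryos. Thy1, the 1 tested gene of the list, made up means of 61.6 CPM in 2CB and 58.4 CPM in 4CB embryos. The list summed to 0 to 52.5 CPM in the 1C/8CB embryos, with Thy1 at means of 17.3 CPM in 1C and 14.0 CPM in 8CB embryos. Thy1 was higher in the 2CB/4CB embryos at a log2 fold change of 1.86 (SE 0.54, edgeR adjusted p = 0.005572), and its part in the differences was not tested.

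The rest of the pathway was read from lists set by name, whose counts stand beside the 55.3% of all tested genes called in this comparison, 31.3% higher and 24% lower, and whose medians stand beside 0.12 over all tested genes. Genes that passed the filter only with the help of the 2CB/4CB embryos, with fewer than 6 of the 1C/8CB embryos at its level, were favoured to be called higher, as were 967 of 1635 such genes among all tested, so the list counts are descriptions and no support for a property of a list. No other laminin chain passed the filter: the 7 others had at most 69 UMIs in a group, for Lamb2 in 2CB embryos. Lama3 had 15, 35, 23 and 2 UMIs in the 1C, 2CB, 4CB and 8CB embryos, and Lama4 had 36, 15, 4 and 12 UMIs, with its highest mean level in 1C embryos (26.4 CPM, against 3.16 CPM in 2CB). Of the other matrix components, 4 of 26 were tested and 3 were higher in the 2CB/4CB embryos, beside 31.3% of all tested genes, and Fbln1 and Fn1 among them passed the filter through those embryos. These were Fbln1, fibulin 1, at a log2 fold change of 3.79 (SE 0.45, edgeR adjusted p = 6.423e-08), Fn1, fibronectin, at 2.51 (SE 0.43, edgeR adjusted p = 1.654e-05) and Tinagl1 at 2.42 (SE 0.40, edgeR adjusted p = 1.296e-05). The remaining tested gene, Smoc1, did not pass. Of the collagen IV chains other than the pair above, Col4a3 and Col4a4 had 4 and 1 UMIs in 2CB embryos, and Col4a5 and Col4a6 had 0 UMIs in all groups.

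Genes for folding, modifying and exporting collagen did not move one way: of 30 genes 14 were tested, of which 1 was higher, 4 were lower and 9 did not pass, beside 31.3% higher and 24% lower among all tested genes, with a median log2 fold change of -0.10. Of these 14 genes 3 passed the filter through the 1C/8CB embryos, with fewer than 6 of the 2CB/4CB embryos at its level. Plod2, a lysyl hydroxylase, was higher at 1.06 (edgeR adjusted p = 0.0201), and P4ha1, Plod1, Mia2 and Pdia3 were lower at between -1.37 and -0.80. The most abundant of the list, the chaperones and isomerases Pdia6, Hspa5 and Hsp90b1, had log2 fold changes of 0.26, -0.29 and -0.19 and did not pass the test. Serpinh1, the collagen chaperone HSP47, did not pass the filter and was singled out after its values were seen, with 1, 378, 133 and 3 UMIs in the 1C, 2CB, 4CB and 8CB embryos. Of 16 heparan sulfate synthesis genes 2 were tested, and B3gat3 was higher at 1.11 (SE 0.37, edgeR adjusted p = 0.01429) while Hs2st1 stood at -0.26.

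Among 17 receptors for laminin and collagen 9 were tested, of which 4 were higher and 2 lower, with a median of 1.01, so 6 of 9 were called beside 55.3% of all tested genes, a share near the background. Dag1, dystroglycan, was higher at a log2 fold change of 1.88, Itga6, the integrin α6 subunit, at 1.74, the syndecan Sdc4 at 1.44 and Itga3 at 1.02, and Itgb4 and Itgb5 were lower at -1.99 and -1.51. Of these 9 receptors 1 passed the filter through the 1C/8CB embryos, with fewer than 6 of the 2CB/4CB embryos at its level. Itgb1, the β subunit of most laminin receptors, had a log2 fold change of 0.47 (edgeR adjusted p = 0.1941), and Itgav 0.06. Of 13 adaptors that join integrins to actin 8 were tested and 7 were higher, beside 31.3% of all tested genes, among them Zyx at 3.34, Pxn at 1.46 and Tln1 at 1.36. Zyx, Ptk2, Tln2 and Lims1 passed the filter through the 2CB/4CB embryos. Of the other 4 adaptors 3 were higher, beside 894 of the 4305 tested genes that did not need those embryos to pass. Of 19 genes of matrix turnover 5 were tested and 2 were higher, near the 31.3% of all tested genes, namely Htra1 at 3.41 and the protease inhibitor Serpine2 at 2.17, which both passed through the 2CB/4CB embryos, while the cathepsins Ctsb and Ctsl stood at 0.38 and 0.28 and did not pass.

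**Figure D5:**
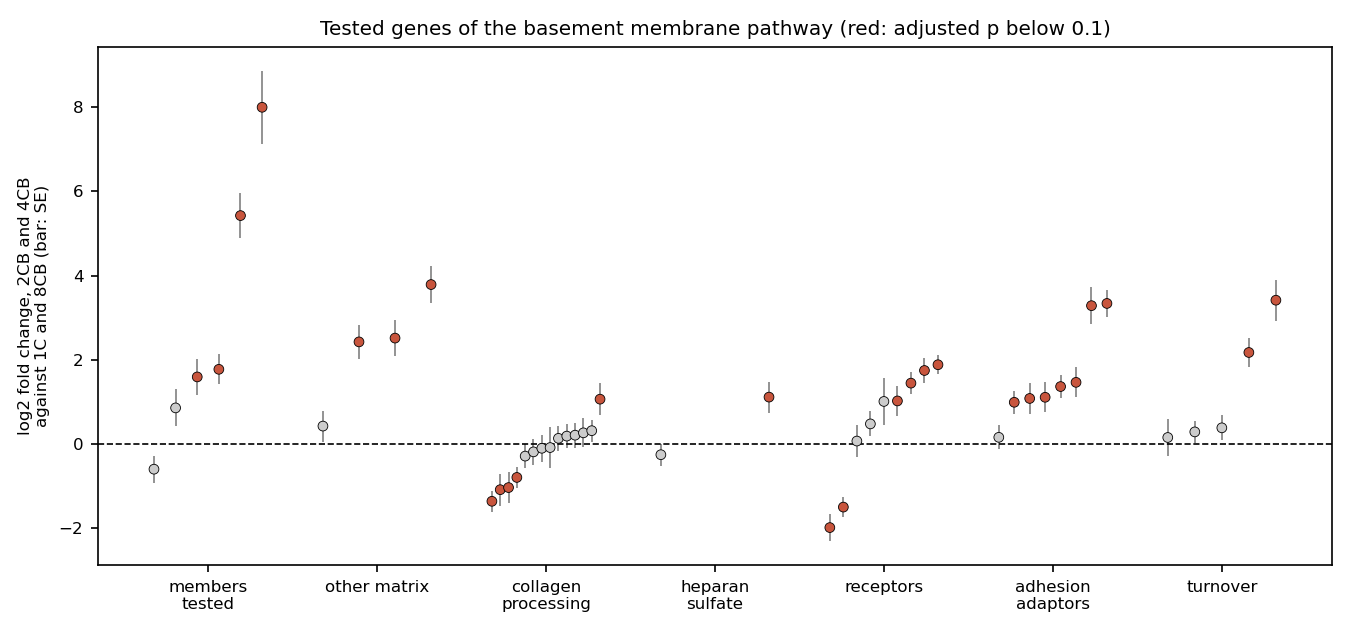
Log2 fold change with its SE of the tested genes of 7 lists in 2CB/4CB against 1C/8CB embryos, where each point is a gene and red marks an adjusted p below 0.1 in edgeR. Adhesion adaptors lie mostly above 0, collagen processing genes lie on both sides of it, and Lama1 and Sparc are the 2 highest points.

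The marker lists were counted in the same comparison, in which 31.3% of all tested genes were higher and 24% lower. Of the tested trophectoderm markers 10 of 14 were higher and 2 lower, of the primitive endoderm markers 6 of 8 were higher and 1 lower, and of the epiblast and inner cell mass markers 2 of 5 were higher and 3 lower. Of these higher genes 8 of the 10, 4 of the 6 and 2 of the 2 passed the filter through the 2CB/4CB embryos. Of the markers that did not need the 2CB/4CB embryos to pass, 2 of 6 trophectoderm, 2 of 4 primitive endoderm and 0 of 3 epiblast markers were higher in edgeR. Among all tested genes that did not need them, 894 of 4305 were higher. Of the 14 tested trophectoderm markers 1 passed the filter through the 1C/8CB embryos. The primitive endoderm count includes Lama1 and Col4a1, and the parietal endoderm count, 2 of 2 higher, is Sparc and Lamb1 themselves.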

How the data were processed

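Whole pseudoblastocysts were captured and barcoded, CEL-Seq2 libraries were made and sequenced on an Illumina instrument, and the authors aligned reads to GRCm38 with HISAT2 2.2.6 and counted UMIs per gene with HTSeq 0.6.1. The deposited values are raw UMI counts per gene and embryo. The annotation release and strand setting are not given in the sources used here. The table also holds 24 columns of other embryos that match no listed sample and were not used. The largest count, 53029, exceeds the number of different 6-base UMIs of the usual CEL-Seq2 protocol, so counts may not all be single molecules, and intervals cover counting error only. Symbols for 51633 of 52366 genes came from GENCODE M21, and promoter windows from RefSeq (GRCm38.p6).

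Embryos were assigned to groups by column names that match the labels of the 2 pools. In R 4.3.3, edgeR 4.0.16 was used with TMM factors (0.928 to 1.07), filterByExpr and a quasi-likelihood model with 1 mean per group, a common biological coefficient of variation of 0.442, and Benjamini-Hochberg adjustment over 5940 genes. The threshold of 0.1 on the adjusted p follows the study. Alternatives used DESeq2 1.42.0 (which the authors applied in version 1.10.1), its size factors, other filters, thinning to 70941 UMIs, a stricter threshold, a replicate block and each embryo left out. On simulated counts for 2CB/4CB against 1C/8CB, with 200 of 5940 genes changed, the model recovered 49% of changes of 1 and 99% of changes of 2 on the log2 scale. For 4CB against 2CB it recovered 7% and 85.5%, and for 8CB against 1C 9% and 86%, so changes of 1 would mostly be missed within a pool. The false share among the simulated calls ran from 0% to 18.2%, beside the threshold of 0.1. In the data 55.3% of genes were called for 2CB/4CB against 1C/8CB, so the share recovered there may differ from the simulated one. A floor of 3 UMIs over a group was used for genes at 0, and log2 CPM took a prior count of 2. Counts, correlations and exact intervals were computed with SciPy 1.17.1.

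The 10 genes, the companion lists and the tests were chosen with earlier results of these data known. Besides the 10 genes, the text names the 3 most abundant tested genes of each companion list, the 5 genes most like the tested ones among those at 20 CPM or more, and further list genes singled out after their values were seen.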

Additional observations from a re-analysis of the deposited data

Results flagged for a closer look

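Each group of 6 embryos was examined for a highest or lowest embryo that stood far from the others by Dixon's criterion, for the 10 genes in the groups with at least 6 UMIs. Of 32 groups 6 had such an embryo, where chance flags about 1 in 20 groups of normally distributed values. The CPM were not transformed and their distribution was not tested, so no excess over that rate is read. Lamb1 stood at 461.4 CPM in 2CB replicate 3, with the next embryo at 213.6 CPM, and at 265.1 CPM in 4CB replicate 3, with the next at 118.6 CPM. Lamc1 stood at 101.7 CPM in 2CB replicate 3 and at 113.6 CPM in 4CB replicate 3, with the next embryos at 51.07 and 25.66 CPM. Nid1 stood at 420.6 CPM in 4CB replicate 3, with the next embryo at 153.1 CPM. Hspg2 stood at 49.53 CPM in 2CB replicate 4, from 32 UMIs, with the next embryo at 19.13 CPM. In all 6 cases the embryo was the highest of its group, and the values of 1 embryo share a library and are not independent.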

How the results depend on the processing

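The calls of Lama1, Sparc, Lamb1 and Col4a1 in 2CB/4CB against 1C/8CB embryos held their direction and their side of the threshold in all alternatives that tested them, except that Lama1 did not pass a minimum of 5 UMIs in each of 12 embryos. With no filter on low counts, which tests 10 rather than 6 of the genes, the number called was 8 among the 4 groups, 8 in 2CB/4CB against 1C/8CB, 9 in 2CB against 1C and 7 in 8CB against 2CB, beside 5197, 5525, 3629 and 3134 of all 23171 genes, and the companion lists had 50 calls in place of 24. Leaving out 1 embryo in turn gave 2 to 4 of the 6 genes in 4CB against 1C, with 2 without 1C replicate 6 (beside 2160 of all 5940 genes), 4 to 6 in the pooled comparison (beside 3179 to 3303) and 0 in both comparisons within a pool. Col4a2 in the pooled comparison was called with DESeq2 (log2 fold change 0.95, adjusted p = 0.07109) and with its size factors in edgeR (0.91, adjusted p = 0.08983). Same-numbered embryos of different groups had a mean correlation of -0.016 over 36 pairs, from -0.248 to 0.224, with 3 above 0.1. Differently numbered embryos were not compared, and a mean over pairs cannot exclude that some were paired. A replicate block gave 5 calls in the pooled comparison (beside 3184 of all genes), with Nid1 lower (-0.85, edgeR adjusted p = 0.02417). The cause of these moves was not tested beyond the number of genes and embryos entered. No alternative reversed a called direction. Depth limits Nid2, Hspg2 and Lama1 in the 1C/8CB embryos, where 3 UMIs over the set are 1.02 CPM.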
